A study of Rattus norvegicus with 6 samples.

Results

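Thrombospondins, cartilage oligomeric matrix protein (Comp) and tenascins are secreted glycoproteins that sit between cells and the collagen of connective tissue. The set held 9 names, Thbs1, Thbs2, Thbs3, Thbs4, Comp, Tnc, Tnxb, Tnn and Tnr. A member was taken where a row of the deposited table carried its symbol alone, and 8 of the 9 were found among 22093 genes so named. Each of the 8 had a single row. Tnxb, the tenascin-X gene, was not analysed here.

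Thrombospondins bind calcium, collagens, cell-surface receptors and growth factors. Thbs1 and Thbs2 assemble as trimers and regulate angiogenesis and collagen assembly, whereas Thbs3, Thbs4 and Comp assemble as pentamers, and Comp and Thbs4 are known components of tendon matrix. Tenascins are large modular proteins, of which tenascin-C (Tnc) is known from growing and injured tendon, tenascin-W (Tnn) from developing bone and tenascin-R (Tnr) from the nervous system.

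The study compared Achilles tendons of male Sprague Dawley rats aged 6 to 8 weeks (P 6-8w, n = 3) with those of neonatal rats at 1 day after birth (P 1d, n = 3), to profile how gene expression differs between mature and neonatal tendon. Each of the 6 arrays held total RNA of the left Achilles tendon of a single rat, with the skin removed, and the labels give no treatment. Abundance was read from the brightness of sets of short probes on the Rat Transcriptome Array of Affymetrix, after hybridisation with labelled cDNA. The values are log2 signals from robust multichip analysis (RMA), so that a difference of 1 is a factor of 2 in signal. Signals of different genes cannot be ranked against each other because probes differ in brightness. The step that gave log2 signals as high as 19.79 is not stated. The folds below are therefore folds of the deposited signal, and their size may depend on that step.

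The arrays differed in ways that touch the members. Among genes with a mean signal of at least 8, the median was 8.82, 7.91 and 8.46 on P 6-8w arrays 1, 2 and 3, against 10.16, 10.23 and 10.18 on the P 1d arrays, so that bright genes were lower at P 6-8w as a body, and lowest on P 6-8w array 2. Of genes with a mean signal from 6 to 8, 47.7% were called lower at P 6-8w, from 8 to 10 it was 72.7%, from 10 to 12 it was 74.5%, and from 12 to 14 it was 76.5%. The share called higher in those same ranges was 1.79%, 1.55%, 3.25% and 2.68%. No member stood at the highest value of any array, which lay between 19.56 and 19.79. Some epidermal genes gave high signals, and only on 2 P 1d arrays (1 and 3), whereas genes of skeletal muscle gave high signals at both ages. Of the defining tendon genes, Tnmd, Kera, Fmod and Dcn were bright, whereas Scx and Mkx stayed below 5.1 on all 6 arrays. As each array held whole tendon, fewer cells of a type and less RNA per cell cannot be told apart.

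A gene was called where limma, a linear model with variances moderated over all genes, gave a Benjamini-Hochberg adjusted p under 0.05 over the 22093 genes and a log2 difference beyond 1 in either direction. Of the 8 members, 3 were called lower at P 6-8w (Thbs2, Thbs3 and Tnc), where 16.8% of all genes were called lower. Only Comp was called higher, where 2.46% of all genes were. The other 4 (Thbs1, Thbs4, Tnn and Tnr) were not called. The median difference over the 8 was 0.26, beside 0.04 over all genes. Under other scalings of the arrays, Thbs2, Thbs3, Tnc, Comp, Thbs1, Thbs4 and Tnr kept the sign of their difference and Tnn changed sign under 2 of 4. The calls did depend on the scaling, with 1 member lower and 5 higher after centring on the brighter genes, 2 and 5 after centring on the reference genes, and 1 and 3 after quantile normalization. Of all 22093 genes, the first called 593 lower and 17286 higher, the second 1259 and 12549, and the third 991 and 894. The promoters of 3 of the 4 called members are given before their values, and that of Thbs2 is not shown.

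Promoter sequence was available for 7 of the 9 listed members, from the RefSeq annotation of GRCr8. The windows of 250 bases that end just before the transcription start are printed for Comp, the member that rose, and for Thbs3 and Tnc, members that fell, so that genes that moved in opposite directions can be read side by side. Capitals mark matches to the E-box (CANNTG), the motif bound by basic helix-loop-helix factors such as scleraxis. The windows are chr16:19089549-19089798 on the minus strand for Comp, chr2:176919349-176919598 on the plus strand for Thbs3 and chr5:82476132-82476381 on the minus strand for Tnc, each written 5′ to 3′ on the gene's own strand.
Comp: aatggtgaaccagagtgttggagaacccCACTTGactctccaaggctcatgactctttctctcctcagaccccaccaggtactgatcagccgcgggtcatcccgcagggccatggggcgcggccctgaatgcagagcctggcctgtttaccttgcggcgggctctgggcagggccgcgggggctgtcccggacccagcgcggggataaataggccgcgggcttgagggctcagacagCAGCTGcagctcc
Thbs3: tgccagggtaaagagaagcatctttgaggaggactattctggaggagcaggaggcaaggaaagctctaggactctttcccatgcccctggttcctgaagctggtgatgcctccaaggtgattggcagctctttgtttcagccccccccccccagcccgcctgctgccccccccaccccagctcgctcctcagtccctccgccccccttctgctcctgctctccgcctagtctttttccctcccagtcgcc
Tnc: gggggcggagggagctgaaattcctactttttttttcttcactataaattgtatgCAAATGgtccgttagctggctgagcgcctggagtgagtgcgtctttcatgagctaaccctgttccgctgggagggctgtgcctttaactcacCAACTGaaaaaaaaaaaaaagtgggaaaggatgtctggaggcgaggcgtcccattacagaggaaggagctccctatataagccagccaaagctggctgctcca

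The E-box pattern CANNTG reads the same on both strands, although a given match need not. It was present in 65.5% of the 33469 promoter windows of this length. Comp had 2 matches, which began 222 and 13 bases before the transcription start, and Tnc had 2, at 195 and 103 bases. Thbs3 had none. The GC box (GGGCGG, either strand), bound by Sp1, matched once in Thbs3 and once in Tnc and not in Comp, with 30.5% of all windows holding it. The AP-1 site (TGACTCA, either strand) was in none of the 3, and in 4.05% of all windows. The TATA box was searched only as the letters TATAAA, on either strand, which matched in Tnc at 208 bases before the start. That spelling was in 12.9% of all windows. Other spellings were not searched, and the Tnc window also holds tatataag near its end, closer to the start. Thus the member that rose and a member that fell both held E-boxes. These matches describe letters in the window, and a match is not evidence of binding.

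The largest change among the members was in Comp, which encodes the pentameric thrombospondin that binds fibrillar collagens and is abundant in load-bearing tendon. Comp rose to 11.98, 9.49 and 10.78 at P 6-8w, against 5.91, 5.28 and 4.96 at P 1d. The lowest P 6-8w array was more than 3 log2 units above the highest P 1d array, and all P 1d values lay below 6. The means were 10.75 ± 1.25 at P 6-8w and 5.38 ± 0.48 at P 1d (SD, n = 3 each), a difference of 5.37 (standard error 0.66, 95% interval 3.70 to 7.03) with an adjusted p of 0.0022 from limma. This corresponded to 41.3-fold higher signal, and only 7 of the 22093 genes had a larger positive difference. Without P 6-8w array 2 the difference was 6.00 (adjusted p = 0.00225 from limma).

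**Figure D1:**
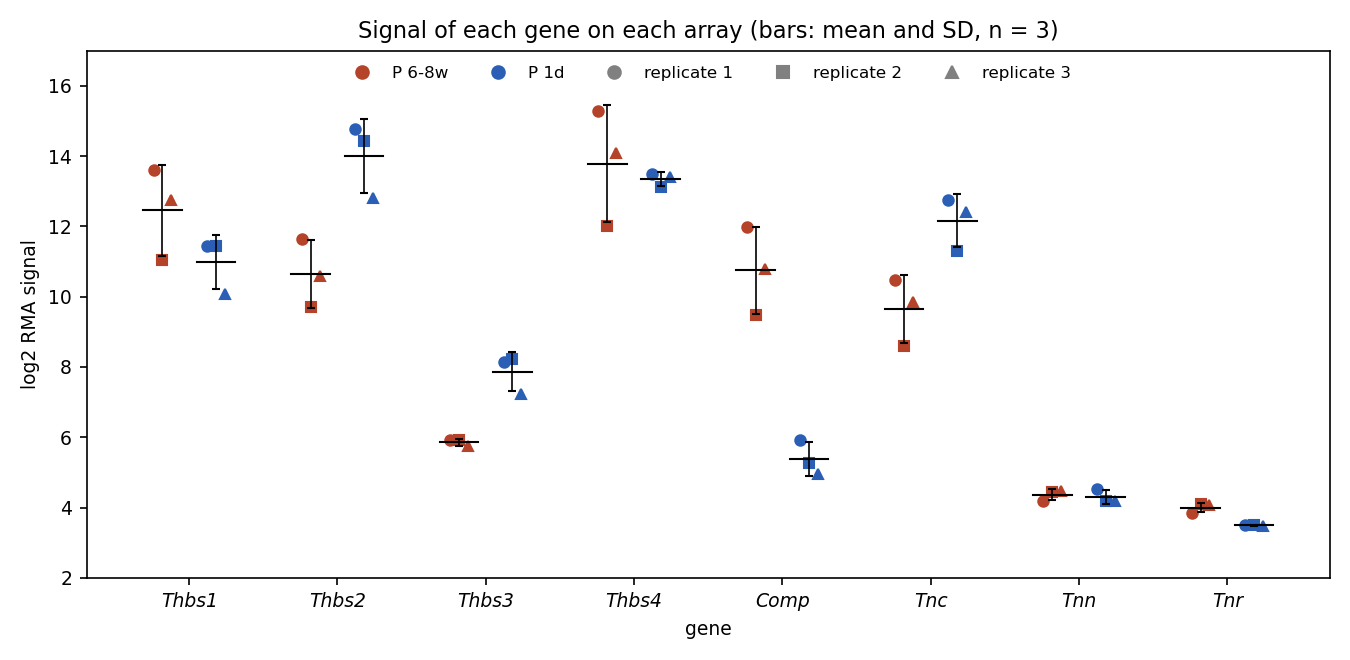
The log2 RMA signal (vertical axis) of the 8 measured members on each of the 6 arrays, with P 6-8w in red to the left of P 1d in blue; the symbol shape gives the replicate and the black bars the mean and SD (n = 3). Comp lies between 9.49 and 11.98 at P 6-8w and between 4.96 and 5.91 at P 1d, whereas the groups of Thbs1, Thbs4 and Tnn overlap.

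Genes of a cartilage list moved partly with Comp. Of its 14 genes, 3 were called higher at P 6-8w and none lower, with a median difference of 0.28. The log2 of the summed signal of the 14, set mainly by Chad and Clec3a, was 18.12, 15.6 and 16.82 at P 6-8w, against 9.24, 8.81 and 8.72 at P 1d. The 3 were Chad, the collagen-binding protein chondroadherin, Clec3a, a cartilage lectin, and Ucma, a secreted protein of upper-zone cartilage. The other 11 were not called. Col2a1, the type II collagen gene, had 6.90, 6.51 and 6.90 at P 6-8w, against 7.15, 6.90 and 6.75 at P 1d. Acan, the aggrecan gene, had 6.22, 5.11 and 5.16 at P 6-8w, against 6.34, 5.10 and 5.08 at P 1d. Both sets of arrays overlapped for each gene, and Matn1 stayed between 3.85 and 4.13 on all 6 arrays. Cnmd, Hapln1, Col9a1, Col9a2 and Matn3 had low signals, at differences of 0.71, 0.76, 0.33, 0.31 and 0.25, under the limit of 1. For each of them all P 6-8w arrays lay above the P 1d arrays, as they did for 34.8% of all genes. Other lists also moved with Comp. Of adipocyte genes 4 of 6 and of bone genes 3 of 5 were called higher at P 6-8w, and none lower. Among all genes 2.46% were called higher. The part of the genes of these lists in the Comp difference was not tested.

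Thbs4, a close relative of Comp and a pentamer of tendon and muscle matrix, behaved differently. Thbs4 had 15.29, 12.00 and 14.08 at P 6-8w, against 13.50, 13.12 and 13.41 at P 1d. The P 6-8w values lay on both sides of the P 1d values and spread far more widely, with an SD of 1.66 against 0.20. The difference of 0.45 (95% interval -1.64 to 2.53, adjusted p = 0.658 from limma) did not exceed the spread between rats, and the interval leaves room for a change of more than a factor of 2 in either direction. Without P 6-8w array 1 the difference was -0.30, and without array 2 it was 1.34 (adjusted p = 0.053 from limma).

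Skeletal muscle genes also differed between these arrays. Of 13 muscle genes, 8 were called lower at P 6-8w and 2 higher, beside 16.8% and 2.46% of all genes. Of all genes with a mean signal from 10 to 12, 12 to 14 and 14 to 16, 74.5%, 76.5% and 77.9% were called lower. The log2 of the summed signal of the 13 was 20.05, 18.04 and 20.08 at P 6-8w, against 21.55, 21.55 and 21.70 at P 1d. Acta1, the skeletal actin gene, stood at the highest value of 5 of the 6 arrays and Ttn, the titin gene, at that of 1. Without these 2 genes the log2 of the summed signal of the other 11 was 17.23, 15.84 and 17.34 at P 6-8w, against 20.43, 20.51 and 20.67 at P 1d. The brightest of the 11 at P 1d was the myosin gene Myh3. It had 9.28, 8.05 and 9.03 at P 6-8w, against 19.29, 19.31 and 19.42 at P 1d. The 2 genes called higher were also myosin genes, Myh1 and Myh4, so the sums do not measure the amount of muscle RNA alone. The P 6-8w array with the lowest muscle sum, array 2, was also the one with the lowest Thbs4 and the lowest bright genes. The part of muscle RNA in the Thbs4 values was not tested.

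Thbs3, the remaining pentamer, known from bone and cartilage, fell to 5.91, 5.91 and 5.75 at P 6-8w, against 8.15, 8.22 and 7.23 at P 1d. The groups did not overlap, and the P 6-8w arrays, all below 6, differed among themselves by less than 0.2. The means were 5.86 ± 0.09 at P 6-8w and 7.87 ± 0.55 at P 1d (SD, n = 3 each), a difference of -2.01 (95% interval -2.72 to -1.30, adjusted p = 0.00325 from limma) or 4.03-fold lower signal. Genes of like signal, here those with a mean signal from 6 to 8, had a median difference of -0.97. Without P 6-8w array 2 the Thbs3 difference was -2.04 (adjusted p = 0.0128 from limma). Thbs3 was not called when arrays were centred on the brighter genes (-0.22, adjusted p = 0.521 from limma) or on the reference genes, where its difference of -0.95 fell short of the limit of 1.

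The trimeric thrombospondins parted. Thbs2, which encodes an inhibitor of angiogenesis whose loss in mice disturbs collagen fibrils in skin and tendon, fell to 11.63, 9.71 and 10.58 at P 6-8w, against 14.78, 14.42 and 12.81 at P 1d. Every P 6-8w array lay below every P 1d array, which held for 34.1% of all genes. The means were 10.64 ± 0.96 at P 6-8w and 14.0 ± 1.05 at P 1d (SD, n = 3 each), a difference of -3.36 (95% interval -5.14 to -1.59, adjusted p = 0.0118 from limma) or 10.3-fold lower signal. Genes of like signal had a median difference of -2.73. Without P 6-8w array 2 the Thbs2 difference was -2.90 (adjusted p = 0.0348 from limma). Under quantile normalization, which gives all arrays the same distribution, Thbs2 differed by -0.84 and was not called (adjusted p = 0.254 from limma).

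Thbs1, a platelet and fibroblast product that activates latent TGF-beta and signals through Cd36 and Cd47, was not called. Thbs1 had 13.60, 11.05 and 12.74 at P 6-8w, against 11.43, 11.43 and 10.09 at P 1d. Arrays 1 and 3 of P 6-8w stood above all P 1d arrays and array 2 below 2 of them. The difference of 1.48 had a 95% interval of -0.40 to 3.36 and an adjusted p of 0.141 from limma. Without P 6-8w array 2, the dimmest array for bright genes, Thbs1 was called higher, at 2.19 (adjusted p = 0.0349 from limma).

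**Figure D2:**
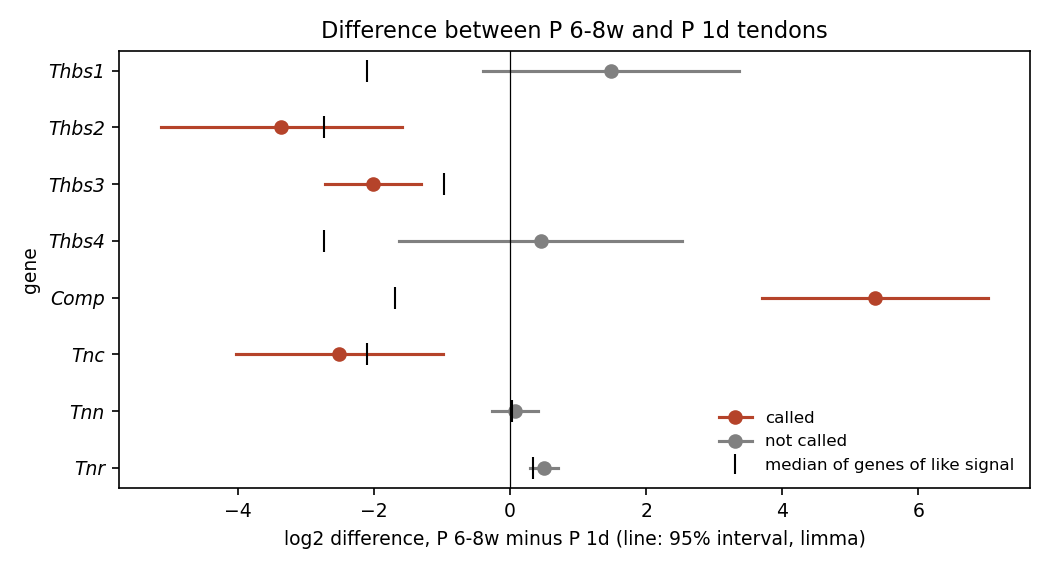
The log2 difference, P 6-8w minus P 1d (horizontal axis), of each measured member, with its 95% interval from limma; red marks called members, grey those not called, and the short black bars the median difference of all genes in the same range of mean signal. The Comp interval of 3.70 to 7.03 lies far from the median of -1.70 for genes of like signal, whereas Tnc at -2.51 and Thbs2 at -3.36 lie near theirs.

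Tnc encodes tenascin-C, a matrix protein that lowers cell adhesion to fibronectin and is expressed in growing tendon and at the myotendinous junction. Tnc fell to 10.49, 8.61 and 9.85 at P 6-8w, against 12.76, 11.31 and 12.42 at P 1d. The groups did not overlap, although the highest P 6-8w array was within 1 log2 unit of the lowest P 1d array. The means were 9.65 ± 0.96 at P 6-8w and 12.16 ± 0.76 at P 1d (SD, n = 3 each), a difference of -2.51 (95% interval -4.03 to -0.99, adjusted p = 0.0182 from limma) or 5.71-fold lower signal. Genes of like signal had a median difference of -2.11. Without P 6-8w array 2 the Tnc difference was -1.99 (adjusted p = 0.0367 from limma). The Tnc call was lost without P 6-8w array 3, P 1d array 1 or P 1d array 3, at differences of -2.61, -2.22 and -2.38 with an adjusted p of 0.0505, 0.0629 and 0.064 from limma. It was also lost after centring on the brighter genes (-0.72) and after quantile normalization (-0.40).

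Within P 1d, the lowest Tnc value stood on array 2, the array on which epidermal genes were dim. The log2 of the summed signal of 8 epidermal genes was 7.78, 7.50 and 7.52 at P 6-8w, against 18.1, 7.16 and 19.31 at P 1d, and none of the 8 was called in either direction. Krt10, a keratin of differentiated epidermis, had 4.75, 4.56 and 4.56 at P 6-8w, against 13.91, 4.27 and 15.85 at P 1d. Dsg3, Krt15 and Loricrin of the same list stayed dim, at or below 5.60 on every array. Set against P 1d array 2 alone, the Tnc difference was -1.66 (adjusted p = 0.278 from limma, with a single array for P 1d). Thbs2, Thbs3 and Comp differed by -3.78, -2.36 and 5.47 in that comparison, and Thbs3 alone stayed called (adjusted p = 0.106, 0.0301 and 0.093 from limma, in the order given). P 1d array 3 had the highest epidermal sum. The lowest P 1d values of Thbs1, Thbs2, Thbs3 and Comp stood on that array, at 10.09, 12.81, 7.23 and 4.96. The part of epidermal RNA in the differences of Tnc and these members was not tested.

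Tenascin-W and tenascin-R had low signals at both ages. Tnn had 4.18, 4.45 and 4.47 at P 6-8w, against 4.53, 4.18 and 4.18 at P 1d, with overlapping groups and a difference of 0.07 (95% interval -0.27 to 0.41, adjusted p = 0.673 from limma). Tnr had 3.85, 4.09 and 4.06 at P 6-8w, against 3.51, 3.51 and 3.48 at P 1d. All P 6-8w arrays of Tnr lay above the P 1d arrays, as they did for 34.8% of all genes, and the difference of 0.50 (adjusted p = 0.00507 from limma) stayed under the limit of 1. Genes with a mean signal from 2 to 4, the range of Tnr, had a median difference of 0.33.

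Differences between a pair of members on the same array are not moved when a whole array is brighter or dimmer by a fixed amount. A shift that varies with signal is not removed. The median difference between the ages was 0.33 for genes with a mean signal from 2 to 4 and -2.73 from 12 to 14. The size of such a difference does not rank the 2 genes, and only its change between the ages is described here, without a test. Of the 15 pairs among Thbs1, Thbs2, Thbs3, Thbs4, Comp and Tnc, 10 gave values that did not overlap between the ages. Over all pairs of the 22093 genes 67.5% did so, and over pairs of genes with a mean signal of at least 6 it was 67.9%, so the count for the members is near the background and the values below are a description. Thbs2 minus Comp was -0.35, 0.22 and -0.20 at P 6-8w, against 8.87, 9.14 and 7.85 at P 1d, which was the largest change of any pair at -8.73. Comp minus Tnc was 1.49, 0.88 and 0.93 at P 6-8w, against -6.85, -6.03 and -7.46 at P 1d. P 6-8w array 2, low for each of these genes alone, stood close to the other P 6-8w arrays in both pairs. In other pairs it stood apart from arrays 1 and 3. Thbs1 minus Thbs3 was 5.14 on array 2 against 7.69 and 6.99, and Thbs3 minus Comp was -3.58 against -6.07 and -5.03.

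Thbs1 and Thbs4, which were not called, are shown against 3 called members. Thbs1 minus Thbs2 was 1.97, 1.34 and 2.16 at P 6-8w, against -3.35, -2.99 and -2.72 at P 1d, so that the trimeric members moved apart by 4.84 with an SD of 0.43 at P 6-8w and 0.32 at P 1d. Thbs4 minus Comp was 3.31, 2.51 and 3.30 at P 6-8w, against 7.59, 7.84 and 8.45 at P 1d, a change of -4.92. Thbs4 minus Tnc was 4.80, 3.39 and 4.23 at P 6-8w, against 0.74, 1.81 and 0.99 at P 1d, a change of 2.96. Thbs1 and Thbs4 thus stood higher relative to Thbs2 and Tnc at P 6-8w on every array, while Comp stood higher relative to all 4. The pairs that overlapped were Thbs1 with Thbs4, Thbs2 with Thbs3, Thbs2 with Tnc, Thbs3 with Thbs4, and Thbs3 with Tnc, so the 3 members called lower were not separated from one another in this way.

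**Figure D3:**
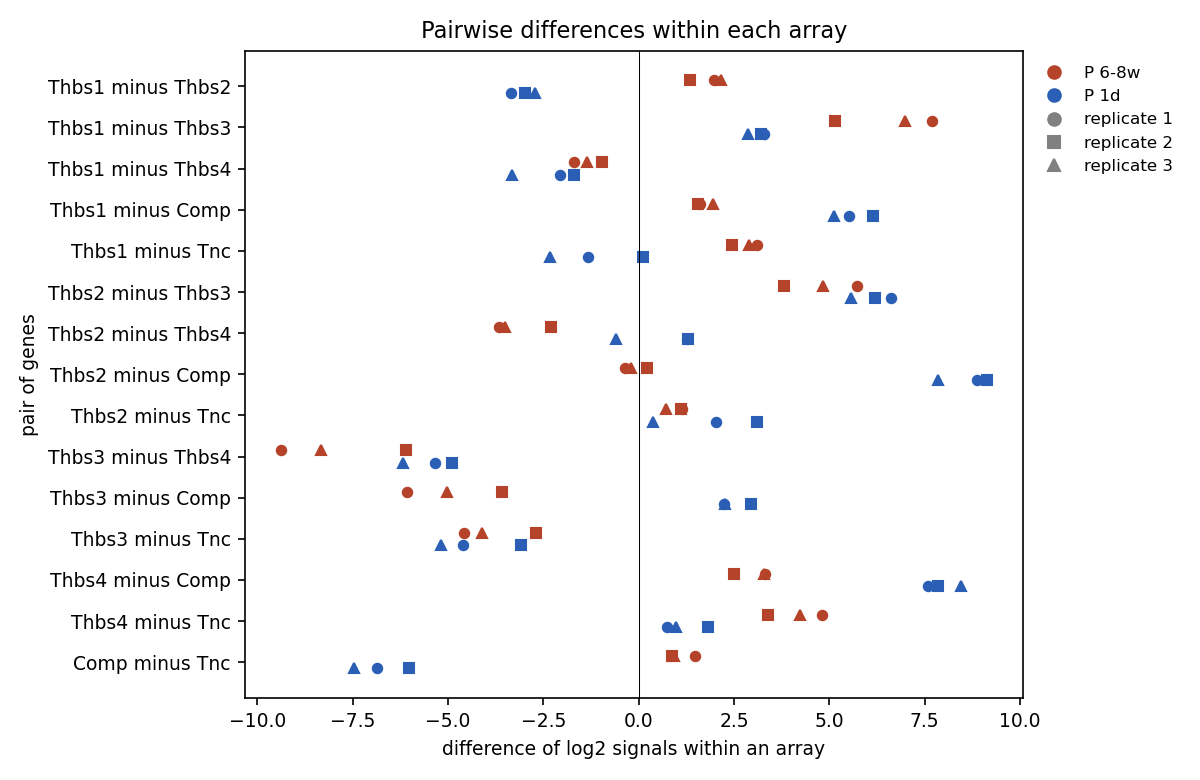
The difference of the log2 signals of 2 members within each array (horizontal axis) for the 15 pairs among 6 members, P 6-8w in red above P 1d in blue, with the replicate given by shape. For 10 of the 15 pairs the 3 red and 3 blue symbols do not overlap; the position on the axis depends on probe brightness, so only the shift between red and blue is read.

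Genes that act with the members were read from 5 lists, with 80 measured genes in all. Of the 80, 25 were called lower at P 6-8w and 1 higher, with a median difference of -0.42, beside 16.8% and 2.46% of all genes called lower and higher. After centring on the brighter genes 10 of the 80 were called lower and 48 higher, where 593 and 17286 of all 22093 genes were. After centring on the reference genes it was 15 and 25 of the 80, beside 1259 and 12549 of all genes. After quantile normalization it was 10 and 8 of the 80, beside 991 and 894 of all genes. The share called lower among all genes differed widely with signal, as given above, and nothing particular to the lists is read from these counts.

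Of 18 thrombospondin receptors and partners, 8 were called lower and none higher, with a median of -1.04. Cacna2d1, the calcium channel subunit that binds thrombospondins in neurons, had 8.31, 7.59 and 8.31 at P 6-8w, against 11.79, 11.78 and 12.41 at P 1d (difference -3.92, adjusted p = 0.000455 from limma). Mmp2, a gelatinase that Thbs2 clears from the pericellular space, and Hspg2, the basement membrane proteoglycan perlecan, differed by -3.49 and -3.46 (adjusted p = 0.0253 and 0.000337 from limma). Itga4, an integrin subunit, differed by -2.28 (adjusted p = 0.000579 from limma). The receptors best known for Thbs1 moved less: Cd36 fell by 1.08 on the log2 scale (adjusted p = 0.0288 from limma), and Cd47 had a difference of -0.28 and was not called.

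Of 19 measured tenascin receptors and partners, 5 were called lower and none higher, with a median of -0.53. Vcan, the large proteoglycan versican that binds tenascins, fell to 7.89, 6.30 and 7.49 at P 6-8w, against 15.80, 15.97 and 14.96 at P 1d. The groups were about 7 log2 units apart at their nearest, and the difference was -8.35 (adjusted p = 0.000286 from limma). Anxa2, a cell-surface annexin that binds tenascin-C, and Egfr, the growth factor receptor to which repeats of tenascin-C bind, differed by -3.37 and -2.97 (adjusted p = 0.00409 and 0.00179 from limma). Itgb6, an epithelial integrin subunit, had 5.07, 5.02 and 5.14 at P 6-8w, against 7.05, 7.74 and 8.26 at P 1d (difference -2.61, adjusted p = 0.00188 from limma). Fn1, the fibronectin gene, had a difference of -1.72 and was not called (adjusted p = 0.0969 from limma).

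Of 20 Comp and collagen fibril partners, 6 were called lower and none higher, with a median of -0.17. Col14a1 fell to 10.55, 8.15 and 9.01 at P 6-8w, against 16.31, 16.09 and 14.16 at P 1d. Col12a1 fell to 11.15, 9.46 and 10.76 at P 6-8w, against 16.38, 16.05 and 15.62 at P 1d. Both genes encode collagens that sit on the fibril surface. Their differences were -6.28 and -5.56 (adjusted p = 0.00284 and 0.000755 from limma), both opposite to that of Comp. Col5a2, a regulator of fibril diameter, and Col3a1, the type III collagen gene, differed by -3.19 and -2.54 (adjusted p = 0.00754 and 0.0137 from limma). Col1a1 and Col1a2 stood at the highest value of all 6 arrays, so no difference can be read for the type I collagen chains. Dcn and Fmod, small proteoglycans of the mature fibril, differed by 0.61 each and were not called (adjusted p = 0.171 and 0.0143 from limma). Fmod thus fell short only of the limit of 1. Bgn, the biglycan gene of the same list, went the other way and was called lower, at -1.23 (adjusted p = 0.035 from limma).

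Of 15 proteases that cleave members, 4 were called lower and 1 higher, with a median of -0.03. Mmp14, a membrane-bound collagenase, fell to 7.30, 6.04 and 6.43 at P 6-8w, against 10.70, 10.69 and 9.74 at P 1d (difference -3.79, adjusted p = 0.00163 from limma). Adamts12, a protease that cleaves Comp, differed by -1.77 (adjusted p = 0.00144 from limma). Its relative Adamts7, also a Comp-cleaving protease, had a difference of -0.43 and was not called. The gene called higher was Mmp3, stromelysin 1, with 6.02, 6.20 and 6.52 at P 6-8w, against 4.13, 4.04 and 4.13 at P 1d (difference 2.15, adjusted p = 0.000348 from limma).

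Of 15 measured transcription regulators linked to Tnc, 4 were called lower and none higher, with a median of -0.42. Smad4, the shared partner of TGF-beta and BMP signalling, had 8.43, 7.54 and 7.96 at P 6-8w, against 10.34, 10.64 and 10.34 at P 1d (difference -2.46, adjusted p = 0.00112 from limma). Sox4, Mrtfa and Srf differed by -1.66, -1.08 and -1.04 (adjusted p = 0.00636, 0.00113 and 0.000165 from limma). Mrtfa and Srf act together in the response of genes to actin tension, and both lay between 5.3 and 6.7 on all arrays. Prrx1, a homeobox factor of limb mesenchyme, had overlapping groups and a difference of -0.06.

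**Figure D4:**
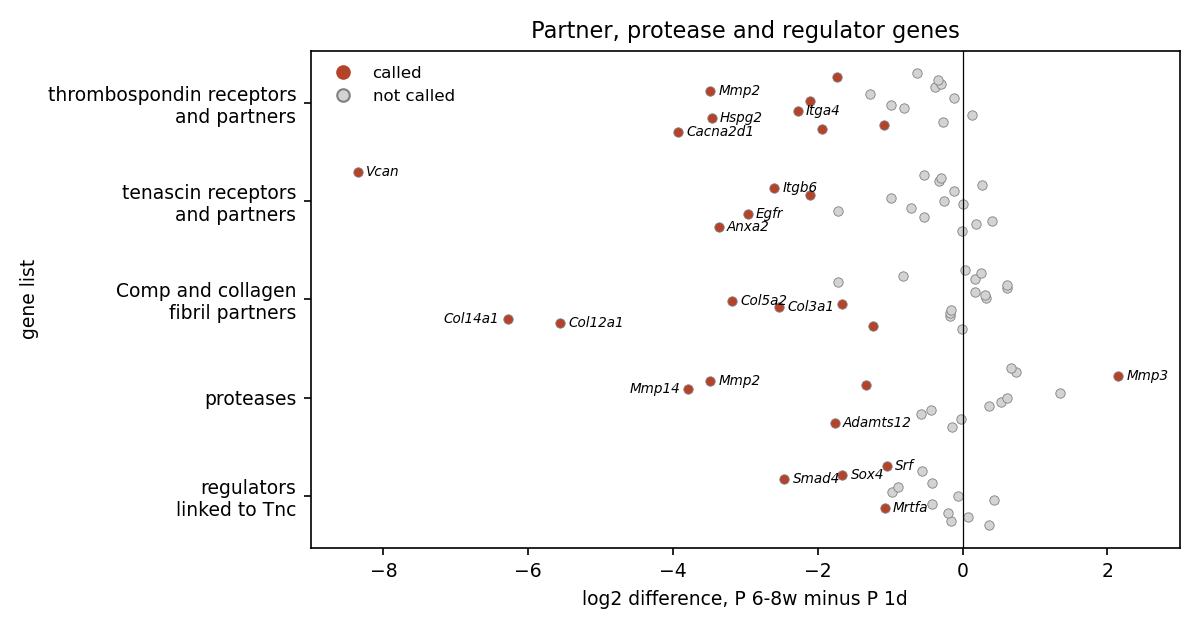
The log2 difference, P 6-8w minus P 1d (horizontal axis), of each measured gene of the 5 lists (rows; height within a row has no meaning), red where called and grey where not. With the values as deposited the called genes lie on the negative side except Mmp3 at 2.15, and Vcan at -8.35 lies farthest from 0.

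The genes most like each called member were found by the root mean square distance over the 6 arrays, after each gene's own mean was removed, and are given as a description. For Comp these were Itgbl1, a secreted integrin beta-like protein, at a distance of 0.19, the purine enzyme gene Gda at 0.26 and Clu, the extracellular chaperone clusterin, at 0.47. Itgbl1 had 14.64, 12.43 and 13.23 at P 6-8w, against 8.26, 7.92 and 7.53 at P 1d, with the same order of arrays within each age as Comp. A shared order is favoured by the way these genes were picked, here and for the members below.

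For Thbs2 the nearest genes were Tgfbi, a TGF-beta-induced matrix adhesion protein, at 0.23, the fibroblast surface protease gene Fap at 0.29 and Fndc1, a fibronectin type III domain protein, at 0.30. Tgfbi had 11.72, 9.37 and 10.23 at P 6-8w, against 14.47, 13.76 and 12.69 at P 1d, with the same order of arrays as Thbs2. For Tnc they were Ptprd, a receptor tyrosine phosphatase, at 0.30, Ssr1, a translocon-associated protein of the endoplasmic reticulum, at 0.34 and Bpnt2, a Golgi phosphatase, at 0.37. For Thbs3 they were Arhgap20, Anxa2-ps1 and Igfbp4, at 0.14, 0.15 and 0.16, of which Anxa2-ps1 is a pseudogene whose probes may share sequence with Anxa2.

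**Figure D5:**
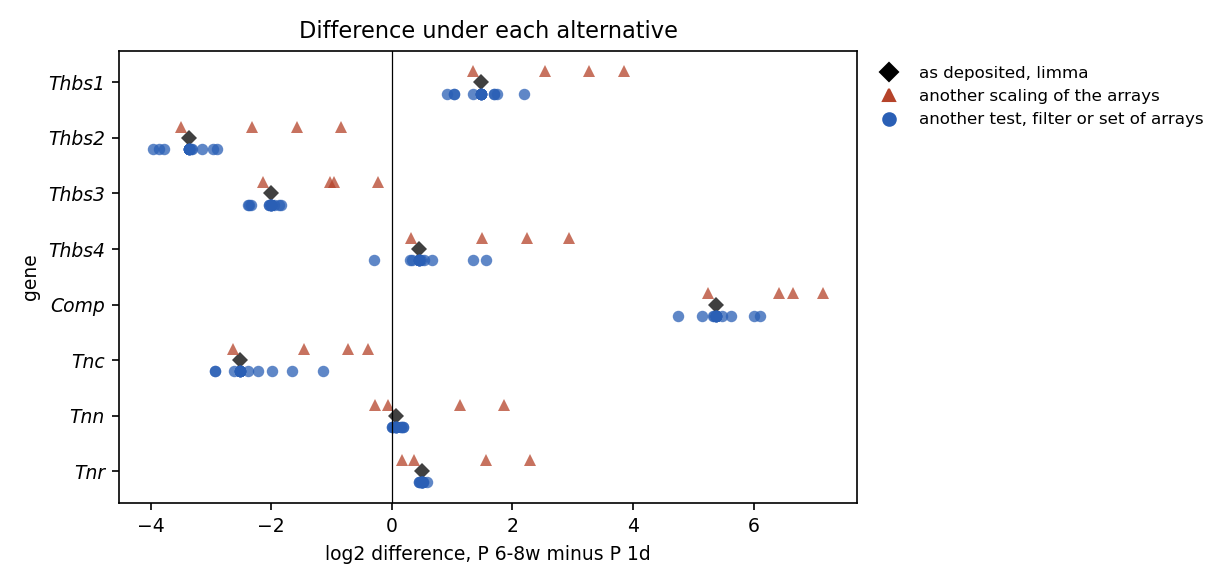
The log2 difference, P 6-8w minus P 1d (horizontal axis), of each measured member as deposited (black diamond), under 4 other scalings of the arrays (red triangles) and under other tests, filters and sets of arrays (blue circles). Comp runs from 4.75 to 7.16, the called lower members stay below 0, Thbs4 turns to -0.30 without P 6-8w array 1, and Tnn falls below 0 under 2 scalings.

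The size of each difference depended on how the arrays were put on a common scale. Centring on the brighter genes or on reference genes moved the median of all genes to 1.83 and 1.10. With the values as deposited 3717 genes were called lower and 544 higher, after centring on the brighter genes 593 and 17286, after centring on the reference genes 1259 and 12549, and after quantile normalization 991 and 894. Centring moves all genes of an array alike, so differences relative to the median of all genes are fixed under it by construction. Relative to that median, Comp was higher by 5.33 as deposited and by 6.66 after quantile normalization. Thbs2 relative to that median was -3.40 as deposited and -0.84 after quantile normalization, and Tnc was -2.55 and -0.40. After quantile normalization Thbs1 and Thbs4, with differences of 3.86 and 2.94, were called higher (adjusted p = 0.00342 and 0.0075 from limma). With 3 rats against 3, an exact two-sided permutation test cannot go below 0.1, the value it gave for Comp, Thbs2, Thbs3, Tnc and Tnr.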

How the data were processed

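Total RNA of 6 Achilles tendons was profiled on Affymetrix Rat Transcriptome Arrays. The values, deposited as log2 signals, came from RMA run by the authors with Affymetrix defaults and global scaling. The study's software list holds the Transcriptome Analysis Console of Affymetrix with no step named. The annotation build was not given in the sources used here. All 413052 of 413052 values of another deposited table were equal to these. Of 68842 rows, 23446 had a single symbol, 505 had several and 44891 had none, and only the first kind was used. Symbols came from the platform annotation, with 1 updated. For the 1182 genes with several rows, the row with the highest mean was taken, which left 22093 genes. No detection calls were used, depth does not apply to arrays, and the number of arrays limits the precision.

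Groups were compared with limma 3.58.1 in R 4.3.3 (lmFit and eBayes, no covariates), in a fit over all genes that was tested on simulated data. The members and gene lists were chosen with earlier results of these data known. The text names every member, of each list the up to 4 called genes without overlap between groups that differed most, and the 3 genes most like each called member. Marker genes are named where a result turns on them, and genes at the highest value of an array are named as such. Chosen after their values were seen were Cd36, Cd47, Fn1, Dcn, Fmod, Bgn, Adamts7, Prrx1, Krt10, Col2a1, Acan, Matn1, Matn3, Cnmd, Hapln1, Col9a1, Col9a2, Tnmd, Kera, Scx, Mkx, Chad, Clec3a and Ucma. So were Myh1, Myh3, Myh4, Dsg3, Krt15 and Loricrin, and the adipocyte and bone lists as set beside Comp. The muscle sum without genes at the ceiling and the share of gene pairs without overlap were also added after seeing the data.

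The 20 alternatives were the t-test of the methods, unadjusted and adjusted, limma with a variance trend and robust settings, a test without the fold limit, a replicate block, each array left out, P 6-8w against P 1d replicate 2 alone, centring on all genes, on the brighter genes or on 11 reference genes, quantile normalization, leaving out 15064 genes with a mean signal under 6 in both groups, the mean of a gene's rows, all rows tested, and P 6-8w replicates 1 and 3 against P 1d replicate 2. The last was chosen after seeing the data. Promoter windows were read from RefSeq (GRCr8), which is not stated to be the build of the array, and searched on both strands. An E-box can share its end bases with a GC box or an AP-1 site.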

Additional observations from a re-analysis of the deposited data

How the results depend on the processing

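Over the 20 alternatives Comp ran from 4.75 to 7.16, Thbs1 from 0.91 to 3.86, Thbs2 from -3.96 to -0.84, Thbs3 from -2.39 to -0.22, Tnc from -2.94 to -0.40 and Thbs4 from -0.30 to 2.94. With the methods' t-test and Benjamini-Hochberg adjustment Tnc was not called (adjusted p = 0.0508). Thbs4 reversed to -0.30 without P 6-8w replicate 1, and ran up to 1.34 with other arrays left out. Tnn reversed to -0.06 centred on the median of all genes and to -0.27 with quantile normalization. The count of members lower (3) was 1 with P 1d replicate 2 alone, 1 centred on the brighter genes and 1 with quantile normalization, and ran from 2 to 3 when each array was left out. The count of members higher (1) was 2 without the fold limit, 0 with P 1d replicate 2 alone, 5 centred on the brighter genes, 5 on the reference genes and 3 with quantile normalization, and ran from 1 to 2 when each array was left out, with 2 without P 6-8w replicate 2.

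Genes lower among all genes (3717) numbered 6759 without the fold limit, 1094 with P 1d replicate 2 alone, 593 centred on the brighter genes, 1259 on the reference genes and 991 with quantile normalization, and 3371 to 4002 when each array was left out. Genes higher (544) numbered 5246, 67, 17286, 12549 and 894 in the same settings, 342 centred on the median of all genes, 182 without dim genes, and 373 to 682 when each array was left out. Listed partner genes lower (25) numbered 9 with P 1d replicate 2 alone, 10 centred on the brighter genes, 15 on the reference genes and 10 with quantile normalization, and 20 to 28 when each array was left out. Partner genes higher (1) numbered 2 with the variance trend and robust settings together, 11 without the fold limit, 48, 25 and 8 under those 3 scalings, and 1 whenever an array was left out. The comparison of P 6-8w replicates 1 and 3 with P 1d replicate 2, chosen after seeing the data, has 3 arrays and gave 0 calls in every count, with Comp at 6.10 (adjusted p = 0.141 from limma). Centring moves the difference of every gene by the same amount. The median of all genes then lay at 1.83 (brighter genes) or 1.10 (reference genes), beyond the limit of 1. Why quantile normalization moves these counts was not tested.

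Replicate numbers of the ages did not pair the arrays (the correlations of their deviations were 0.00997, -0.113 and 0.0457). With the replicate block 3 members were lower and 1 higher, and among all genes 3647 were lower and 501 higher, with Tnc at an adjusted p of 0.00508 from limma. Signal over background limits Tnn and Tnr, whose rows are dim on all arrays. It may also limit the size of the Comp and Thbs3 differences. All Comp values at P 1d and all Thbs3 values at P 6-8w lay below 6.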
